A study of Mus musculus with 17 samples.

Results

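The comparison described here is between forebrains of *Ocn*−/− and *Ocn*+/− pups that were born from mothers of the same genotype. All 6 pups were male, were taken at postnatal day 1 and had *Ocn*−/− mothers, so that maternal genotype, sex and age were shared and the genotype of the pup differed. The members are the 6 libraries that the sample labels give as KO (3 pups) and Het (3 pups) in this tissue, of 17 libraries in the series. The strain was OcnGK, on a 129/SvEv background, in which the osteocalcin genes were inactivated by homologous recombination in embryonic stem cells. The labels call the tissue hippocampus and the study calls it forebrain including the hippocampus, and the name forebrain is kept. How far the dissection varied among pups is not given in the sources used here, and marker levels that bear on it are printed below. Litters and the genotypes of the fathers were not given either. The p-values measure the spread between these pups, which may include litter. Where litter or father differed between the groups, that difference cannot be told apart from the genotype of the pup. The WT forebrains came from WT mothers, so mother and pup change together there. They are quoted as levels and otherwise entered only the alternative fits with 9 and 8 forebrains.

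Osteocalcin is a hormone secreted by osteoblasts, the cells that form bone. In the brain it signals through the receptors *Gpr158* and *Gpr37*, and in testes and other peripheral organs through *Gprc6a*. Maternal osteocalcin crosses the placenta, and the hormone acts on hippocampal development and on the synthesis of neurotransmitters. With *Ocn*−/− mothers on both sides, the comparison asks what the pup's own remaining allele changes in the forebrain transcriptome.

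RNA with a poly(A) tail was sequenced, and the deposited values are expected counts per gene, the number of reads that the RSEM program assigned to a gene, with reads that match several genes divided among them. Totals ran from 12087907 to 14621584 counts per library, with a median of 13722951. Levels are CPM, the counts relative to library size, scaled by the TMM method, and each difference is *Ocn*−/− minus *Ocn*+/− on the log2 scale. The Y-linked gene *Ddx3y* had 45.9 to 67.1 CPM in the 6 libraries and *Xist*, which is transcribed from the inactive X chromosome of females, had 0 to 0.568 CPM, as in males. None of the 13 genes listed for midbrain and hindbrain passed the filter on low counts. They summed to 0.487, 0.688 and 1.31 CPM in *Ocn*−/− and 2.36, 3.58 and 3.09 CPM in *Ocn*+/− forebrains. At these levels near the floor, all *Ocn*−/− sums lay below all *Ocn*+/− sums, as did 4.2% of the genes tested. One of the 13, the transcription factor gene *Pou4f1* (0, 0 and 4 counts against 1, 32 and 29), was called with no filter on low counts (edgeR adjusted p = 0.000849). In that fit the prior degrees of freedom, the weight of the spread pooled over genes, were infinite in the median (12.1 in the main fit). The adjusted p-values of that fit therefore rest mainly on pooled spread and not on each gene's own spread between pups. The hippocampal and dentate gyrus regulators *Prox1* (33.7 to 45.6 CPM) and *Zbtb20* (136 to 290 CPM) were present, but so were neocortical, striatal and thalamic genes, so the tissue was wider than hippocampus. One WT forebrain, replicate 3, stood apart from all others, with a mean distance of 49.5 to the other forebrains against 33 to 38.1, and had 2157 CPM of *Xist* with 0 CPM of *Ddx3y*, which goes against a male label. Among the tests of *Ocn*−/− against *Ocn*+/−, it entered only the alternative with all 9 forebrains.

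The targeted genes could not check the genotypes at this depth. *Bglap* (ENSMUSG00000074483.3, GRCm39 chromosome 3, 88290808 to 88291771, minus strand), which encodes osteocalcin, had 0, 1 and 1 counts in *Ocn*−/− forebrains and 2, 2 and 1 counts in *Ocn*+/− forebrains. *Bglap2* had 0 counts in every forebrain, which allows up to 3 counts per library. Their neighbor *Bglap3* had 0 to 3 counts. Both groups were therefore taken as labelled. Of the 39 protein-coding genes within 500 kb of *Bglap*, 30 were tested, with a median log2 fold change of −0.02. One of them had an unadjusted p under 0.05, near the 3.16% of all genes that did. It was *Tsacc*, a testis chaperone cofactor at 0.406, 0.62 and 0.769 CPM in *Ocn*−/− and 1.25, 1.11 and 1.51 CPM in *Ocn*+/− forebrains (log2 fold change −1.10, standard error 0.462, edgeR adjusted p = 1.00).

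Across the transcriptome no gene passed the threshold. In edgeR's quasi-likelihood test over 15800 genes, 0 genes (0%) had an adjusted p under 0.05, and 2 had one under 0.1. At an unadjusted p under 0.05 there were 500 genes (3.16% of those tested), 207 higher in *Ocn*−/− (1.31%) and 293 lower (1.85%). All 3 *Ocn*−/− forebrains lay above all 3 *Ocn*+/− forebrains for 547 genes (3.46%) and below them for 664 (4.2%). The median log2 fold change was −0.00086, with the 5th percentile at −0.38 and the 95th at 0.34. Of 11926 genes with a mean of at least 5 CPM, 10 differed by more than 1 on the log2 scale. DESeq2 called 3 genes, *Hba-a2*, *Gm16105* and *Tcf7l2*, with 396 genes at an unadjusted p under 0.05. The count at an unadjusted p under 0.05 was 302 without the *Ocn*−/− forebrain 1, 1305 without the *Ocn*−/− forebrain 3 and 1001 without the *Ocn*+/− forebrain 1, with 0, 0 and 1 gene called.

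The precision behind the absence of calls can be measured. The 95% confidence interval of a gene's log2 fold change reached 0.295 to either side in the median, and 0.247 for genes with at least 5 CPM. Among those genes the interval lay within 1 to either side on the log2 scale for 11796 (98.9%), and within a 1.5-fold change for 10543 (88.4%). These intervals are for single genes, with no adjustment over all genes tested. They do not give the smallest difference that could be called, and *Hba-a2*, with a log2 fold change of 0.76, was not called. A p that missed the threshold does not show that levels were equal.

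**Figure D1:**
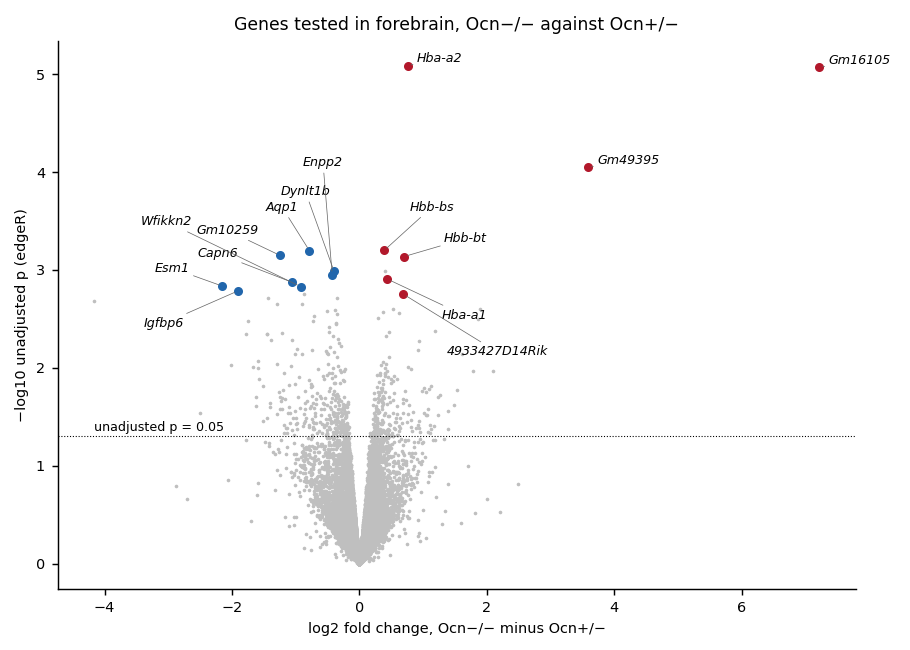
Log2 fold change (*Ocn*−/− minus *Ocn*+/−) on the x axis against −log10 of the unadjusted edgeR p on the y axis, 1 point for each of the 15800 genes tested. Named are 7 of the 8 higher genes (red) and the 8 lower genes (blue) with the smallest p, and *Hba-a2*, *Gm16105* and *Gm49395* stand above the rest.

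The genotypes did not overlap on the first principal component and were mixed by distance. Over the 500 most variable genes the mean Euclidean distance on log2 CPM was 34.6 between pups of one genotype and 35.4 between genotypes. The difference of 0.775 had an exact two-sided permutation p of 0.4, in a design of 10 divisions that cannot go below 0.1. For 2 of the 6 pups the nearest forebrain was of their own genotype. The closest pair of all was the *Ocn*−/− forebrain 2 and the *Ocn*+/− forebrain 1, at 30. On the first principal component (27.3% of the variance, against 23.4% on the second) the *Ocn*−/− forebrains scored −18.8, −3.6 and −6.14. The *Ocn*+/− forebrains scored 6.6, 19.8 and 2.11, so the groups did not overlap there. On any single axis 1 of the 10 divisions is always separate, whatever the labels. Without the *Ocn*−/− forebrain 1 the difference of distances was −0.787 and without the *Ocn*+/− forebrain 2 it was −0.328, both of the opposite sign.

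**Figure D2:**
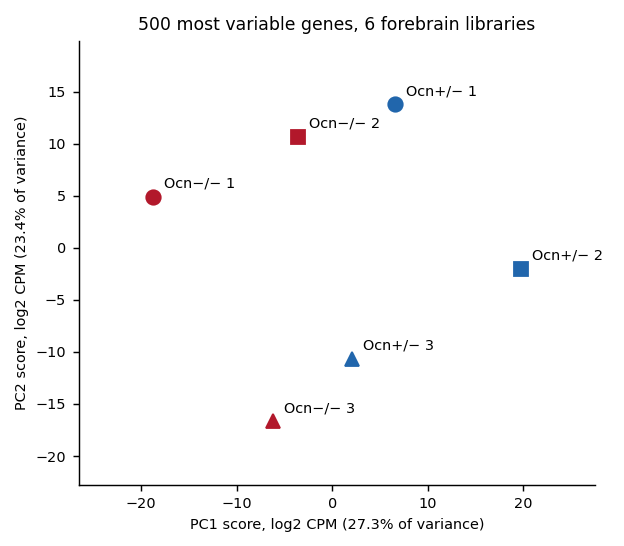
Scores of the 6 forebrains on the first 2 principal components of the 500 most variable genes, with *Ocn*−/− in red, *Ocn*+/− in blue and replicate numbers as symbols. The genotypes lie on different sides of 0 on PC1, and replicate 3 of both lies at the lower end of PC2.

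The receptors of osteocalcin overlapped between the groups, and none passed the test. *Gpr158*, a receptor of neurons that mediates the effect of osteocalcin on memory (GRCm39 chromosome 2, 21372344 to 21835728), had 19.1, 22.7 and 21.6 CPM in *Ocn*−/− and 21, 25.2 and 17.1 CPM in *Ocn*+/− forebrains. Its log2 fold change was 0.00 with a 95% interval from −0.31 to 0.31. *Gpr37*, a receptor found on oligodendrocytes and neurons, had 12.9, 13.6 and 7.07 against 10.7, 11.2 and 11 CPM (log2 fold change 0.03, interval −0.41 to 0.48). The *Ocn*−/− forebrain 3 was the low one, and the spread within *Ocn*−/− was wider than the difference. *Gpr37l1*, a relative of *Gpr37* in astrocytes, had 5.2, 7.57 and 7.99 against 6.11, 3.66 and 5.49 CPM, with a log2 fold change of 0.44 (standard error 0.24, unadjusted p = 0.0849 in edgeR). *Gprc6a* had 0 to 4 counts and was not tested.

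Genes downstream of these receptors or tied to osteocalcin gave no call either. *Gnaq*, a G protein subunit that signals to phospholipase C, had a log2 fold change of −0.06 (interval −0.22 to 0.11). *Rgs7*, a regulator of G protein signalling that binds *Gpr158*, stood at 0.00 (interval −0.20 to 0.21), and *Rbbp4*, a histone-binding protein with a role in hippocampal memory, at 0.01 (interval −0.15 to 0.16). *Bdnf*, a neurotrophin, had 3.08, 6.19 and 4.53 against 6.53, 3.18 and 3.84 CPM, with a log2 fold change of 0.03 and an interval from −0.63 to 0.69. *Ggcx*, the enzyme that carboxylates osteocalcin, was at 10.6, 10.1 and 10.7 against 8.27, 8.91 and 9.19 CPM (log2 fold change 0.25, interval −0.08 to 0.59), with all *Ocn*−/− pups above all *Ocn*+/− pups. Of the 10 genes of this list that were tested, 9 were higher, 1 was lower and 0 had an unadjusted p under 0.05, against 3.16% of all genes.

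Globin messages were the highest-ranking group, and they were higher in *Ocn*−/− forebrains. *Hba-a2* and *Hba-a1* encode the alpha chain and *Hbb-bs* and *Hbb-bt* the beta chain of adult hemoglobin, which red blood cells carry. *Hba-a2* (ENSMUSG00000069917.8) had 155, 109 and 135 CPM in *Ocn*−/− and 80.2, 82.8 and 73.3 CPM in *Ocn*+/− forebrains, or 133 ± 22.9 against 78.8 ± 4.9 (SD, n = 3 each). Every *Ocn*−/− pup lay above every *Ocn*+/− pup, by a log2 fold change of 0.76 (standard error 0.112, edgeR adjusted p = 0.0671). The adjusted p ranged over the alternatives from 8.31e-12 to 1. The lowest came with no filter on low counts, where the spread was mainly pooled over genes. The highest came with the olfactory bulb markers as a covariate, where the log2 fold change was 0.57. *Hba-a1* had 187, 134 and 141 against 111, 115 and 113 CPM (0.44, standard error 0.109), and its log2 fold change was 0.28 without the *Ocn*−/− forebrain 1 and 0.20 with the olfactory bulb covariate. *Hbb-bs* had 233, 232 and 250 against 208, 179 and 158 CPM (0.39, standard error 0.0918). *Hbb-bt* had 25.5, 18.5 and 16.3 against 12.7, 10.8 and 13.4 CPM (0.70, standard error 0.169). The edgeR adjusted p of these 3 genes was 1.00.

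The 2 alpha genes are near-copies, and 59.8% of the 50-base stretches of *Hba-a2* also occur in *Hba-a1*. The 2 beta genes share 53.9% of those of *Hbb-bs*. The division of reads within a pair bears on the single genes and not on their sum. Summed, the alpha genes had 342, 243 and 276 CPM in *Ocn*−/− and 191, 198 and 187 CPM in *Ocn*+/− forebrains, and the beta genes 259, 250 and 266 against 221, 190 and 172 CPM. Neither sum overlapped between the groups. The WT forebrains, from WT mothers, held 352, 304 and 424 CPM of the alpha pair, so the *Ocn*+/− group was the low one of the 3. *Alas2*, the first enzyme of heme synthesis in red cells, had 7.79, 6.13 and 6.69 against 5.7, 4.94 and 4.59 CPM (0.43, standard error 0.207). These 5 were the tested members of a list of 14 erythroid genes, and all 5 were higher with no overlap, where 3.46% of all genes lay so, and 4 had an unadjusted p under 0.05, where 1.31% of all genes did. The other 9 were not tested. *Klf1* and *Slc4a1*, markers of red cells and their precursors, reached at most 0.96 CPM in the 6 libraries, and *Ahsp* was not matched in the table. In bulk tissue, more blood cells and more RNA per blood cell cannot be told apart, and blood left in the vessels was not measured.

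The sequences of the 120 bases before the start sites of the 4 globin genes are shown because these genes were higher side by side. They are from RefSeq on GRCm38.p6, read 5′ to 3′ on the strand of the gene, at chr11:32296372-32296491 (plus) for *Hba-a2*, chr11:32283552-32283671 (plus) for *Hba-a1*, chr7:103827929-103828048 (minus) for *Hbb-bs* and chr7:103813924-103814043 (minus) for *Hbb-bt*. Capitals mark the motif CACCC, the motif CCAAT and the motif TATAA on either strand, which are known from globin promoters.
Hba-a2: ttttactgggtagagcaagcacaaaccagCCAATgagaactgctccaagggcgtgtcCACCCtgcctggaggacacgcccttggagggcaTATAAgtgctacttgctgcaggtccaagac
Hba-a1: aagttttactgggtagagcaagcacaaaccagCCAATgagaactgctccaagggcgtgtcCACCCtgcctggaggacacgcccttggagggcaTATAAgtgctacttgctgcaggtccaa
Hbb-bs: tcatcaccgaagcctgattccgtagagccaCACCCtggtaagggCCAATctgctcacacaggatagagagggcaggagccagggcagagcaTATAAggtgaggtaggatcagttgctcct
Hbb-bt: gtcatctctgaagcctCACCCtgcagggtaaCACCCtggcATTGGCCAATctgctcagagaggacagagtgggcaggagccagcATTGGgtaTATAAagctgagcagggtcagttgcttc
Each of the 4 windows holds all 3 motifs. Among 32851 RefSeq promoter windows of this length, CACCC was in 31.7%, CCAAT in 21.3%, TATAA in 11.8% and all of them together in 0.688%. The windows of *Hba-a2* and *Hba-a1* share an unbroken run of 117 bases, and those of *Hbb-bs* and *Hbb-bt* a longest run of 14. A match in letters is a description and does not show that a factor was bound.

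Of the other genes that ranked high by p and were higher in *Ocn*−/−, most share sequence with another gene. *Gm16105* is a long noncoding RNA that lies antisense to *Celf5* (GRCm39 chromosome 10, 81296993 to 81298806). It had 14, 28 and 13 counts in *Ocn*−/− forebrains and 0 in each *Ocn*+/− forebrain, which made it at least 18.8-fold higher against a floor of 3 counts over the group (edgeR adjusted p = 0.0671). It passed the filter on low counts only through the *Ocn*−/− forebrains, where it was high, so its p-values are printed as values and not as support. Its adjusted p was 0.00375 with all 9 forebrains, 0.0149 with 8, 0.0174 with a replicate block and 0.0219 in DESeq2. Over all alternatives it ranged from 4.64e-06, with no filter and a mainly pooled spread, to 0.438. In the WT forebrains it had 5.97, 6.85 and 9.21 CPM. Its sequence overlaps *Celf5*, with 77.5% of its 50-base stretches shared, and the strandedness of the libraries was not given. *Celf5* itself, an RNA-binding protein of neurons, had 282, 276 and 282 against 287, 282 and 297 CPM. *Gm49395*, a readthrough transcript over *Itga1* and *Pelo*, had 19, 15 and 16 counts against 0, 2 and 2 (log2 fold change 3.59, standard error 0.716, edgeR adjusted p = 0.472), with 78.5% of its stretches shared. This gene too passed the filter on low counts only through the *Ocn*−/− forebrains. *4933427D14Rik* (ENSMUSG00000020807.16) had 16, 22 and 23.6 against 13.6, 15 and 9.74 CPM (0.69, standard error 0.181), and 72.6% of its stretches are shared. In all, 7 of the 8 higher genes shared at least 50% of their 50-base stretches with another gene, against 2 of the 8 lower genes.

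Striatal markers were higher in the median. The dopamine receptor *Drd1* had 30.6, 22.7 and 25.4 against 21.8, 20.9 and 17.9 CPM (0.37), the adenosine receptor *Adora2a* 29.2, 35.8 and 34.7 against 22, 30.5 and 25.9 CPM (0.35) and *Drd2* 14, 17.9 and 15.3 against 11.8, 15.3 and 10.9 CPM (0.32). Of the 11 striatal markers tested, 7 were higher, 3 of them at an unadjusted p under 0.05 (1.31% of all genes), and 4 were lower, with a median of 0.15 against −0.00086 over all genes. The *Ocn*+/− forebrain 1 had the lowest sum of these markers (263 CPM, against 300.2 to 380.5 in the other 5). The median was 0.05 without it, 0.06 without the *Ocn*−/− forebrain 2, 0.25 without the *Ocn*−/− forebrain 1 and 0.39 without the *Ocn*+/− forebrain 2.

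**Figure D3:**
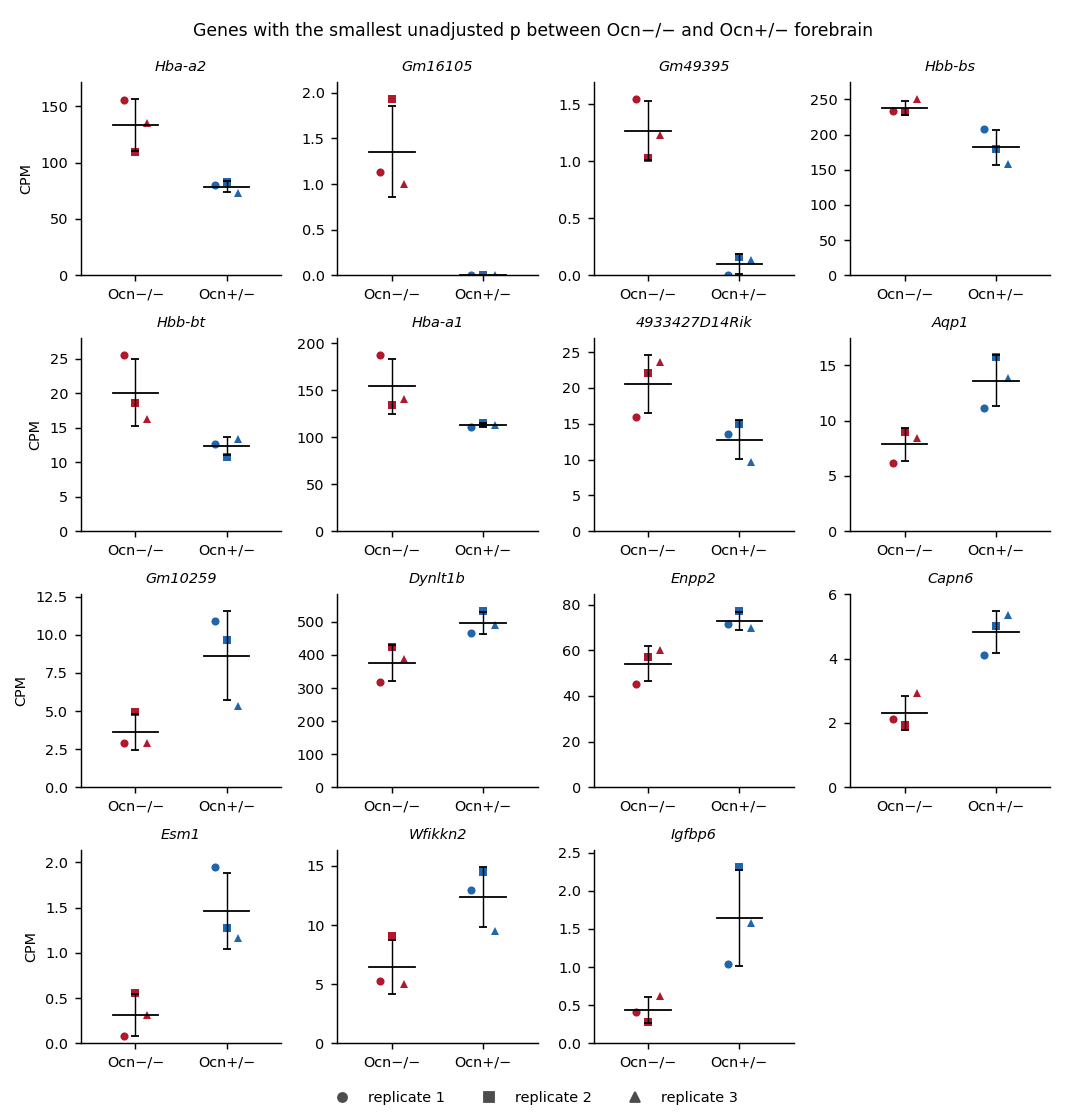
Level in CPM (y axis, from 0) of 7 of the 8 higher genes and the 8 lower genes with the smallest unadjusted p, in *Ocn*−/− (red) and *Ocn*+/− (blue) forebrains. Symbols are single pups, and black bars are the mean and the SD of 3. The groups do not overlap for any of these genes, which were chosen for their small p.

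Among the lower genes, the epithelium of the choroid plexus, which makes the cerebrospinal fluid, gave 3 of the 8 with the smallest p. *Aqp1*, its water channel (ENSMUSG00000004655.6), had 6.17, 8.95 and 8.45 CPM in *Ocn*−/− and 11.2, 15.8 and 13.8 CPM in *Ocn*+/− forebrains. The log2 fold change was −0.78 (standard error 0.186, edgeR adjusted p = 1.00). *Enpp2*, the enzyme that makes lysophosphatidic acid, had 45.3, 56.9 and 60 against 71.5, 77 and 69.8 CPM (−0.43, standard error 0.108). *Wfikkn2*, a secreted protease inhibitor, had 5.28, 9.09 and 4.99 against 13, 14.5 and 9.53 CPM (−0.92, standard error 0.235). With a replicate block its edgeR adjusted p was 0.0464. With no filter on low counts the edgeR adjusted p of *Aqp1*, *Enpp2* and *Wfikkn2* was 0.014, 0.0269 and 0.0026. For none of these 3 genes did the groups overlap, but they were chosen for their small p. Of all genes tested, 4.2% lay below in this way. *Wfikkn2* is not on the list of 14 choroid plexus markers and was placed here after its p was seen.

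*Ttr*, which encodes the thyroid hormone carrier transthyretin and is the most abundant message of that epithelium, had 451, 523 and 311 against 693, 852 and 561 CPM (−0.71, standard error 0.252). *Slc4a5*, a bicarbonate transporter, had 2.44, 2.62 and 0.769 against 4.65, 5.25 and 3.63 CPM (−1.21, standard error 0.363), and *Clic6*, a chloride channel, 7.88, 11.6 and 6.92 against 14.9, 16.8 and 11.7 CPM (−0.71, standard error 0.201). All 14 markers of the choroid plexus were tested. Of these, 13 were lower, 6 at an unadjusted p under 0.05 where 1.85% of all genes were, and 1, *Kl*, was higher. The list had a median of −0.56, and between −0.80 and −0.41 with each library left out in turn. The summed level was 544, 642 and 413 CPM in *Ocn*−/−, 844, 1013 and 694 CPM in *Ocn*+/− and 687 to 871 CPM in WT forebrains. Markers of adjoining tissue were lower too. Of 12 genes of the meninges, the membranes around the brain, 12 were lower, with a median of −0.22 and 0 at an unadjusted p under 0.05, and their sums overlapped (562, 667 and 1035 CPM against 933, 754 and 947 CPM). Of 5 genes of border macrophages, the phagocytes of meninges and choroid plexus, 5 were lower, with a median of −0.44, and *Mrc1*, a mannose receptor, had an unadjusted p under 0.05 (14.9, 16.9 and 18.8 against 24.7, 18.3 and 20.3 CPM, log2 fold change −0.32). Over the alternatives the medians ranged from −0.49 to 0.08 and from −0.70 to 0.00. Fewer epithelial cells in the sample and less RNA per cell cannot be told apart here, and the part of dissection was not tested.

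The other lower genes were of several kinds. *Esm1*, a proteoglycan of endothelial tip cells, had 0.0812, 0.551 and 0.307 against 1.94, 1.27 and 1.17 CPM (−2.15, standard error 0.57). It passed the filter on low counts only through the *Ocn*+/− forebrains, where it was high. *Igfbp6*, which binds insulin-like growth factors, had 0.406, 0.275 and 0.615 against 1.04, 2.31 and 1.58 CPM (−1.91, standard error 0.511). This gene too passed the filter only through the *Ocn*+/− forebrains. *Capn6*, a microtubule-binding member of the calpain family, had 2.11, 1.93 and 2.92 against 4.1, 5.01 and 5.35 CPM (−1.05, standard error 0.273). *Dynlt1b*, a light chain of the dynein motor, had 317, 425 and 388 against 465, 532 and 492 CPM (−0.40, standard error 0.0976). It is 1 of 4 near-identical genes with 72.8% of its stretches shared, and their sum of 428, 552 and 507 against 597, 650 and 617 CPM did not overlap either. *Gm10259*, a pseudogene, shares 96.8% of its stretches with *Kpna2* and others. Its level was 2.92, 4.96 and 2.92 against 10.9, 9.63 and 5.35 CPM (−1.25, standard error 0.29), while the sum of both genes was 66.2, 68.9 and 54.6 against 69.2, 55.5 and 56.6 CPM and overlapped. In the main fit each of these genes had an edgeR adjusted p of 1.00. In edgeR *Dynlt1b* had an adjusted p of 0.0145 with a replicate block and 0.000849 with no filter on low counts. *Gm10259* had 0.000489 with no filter.

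Markers of single brain regions differed widely between pups. The olfactory bulb, which lies at the front of the forebrain, is the first of these. *Cdhr1*, a cadherin of mitral and tufted cells, had 8.28, 53.3 and 55.2 CPM in *Ocn*−/− and 84.7, 72.9 and 94 CPM in *Ocn*+/− forebrains (−1.10, standard error 0.716, edgeR adjusted p = 1.00). Its log2 fold change ranged from −1.43 to −0.63 with 1 library left out, and from −1.43 to −0.10 over all alternatives. The *Ocn*−/− forebrain 1 was low, and *Tbx21* and *Ms4a15* were at 0 CPM there. None of the 6 bulb markers that could be tested was higher, 0 had an unadjusted p under 0.05, and their median stood at −0.82. Their list summed to 15.1, 65.3 and 71.6 CPM in *Ocn*−/−, 106, 86.7 and 114 CPM in *Ocn*+/− and 14.56 to 21.4 CPM in WT forebrains. Without the *Ocn*−/− forebrain 1 the median was −0.47, and without the *Ocn*−/− forebrain 3 it was −1.39.

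3 genes that the bulb expresses, chosen after their values were seen, were lower as well. *Th*, for tyrosine hydroxylase, which starts dopamine synthesis, had 1.06, 3.72 and 3.53 against 5.83, 4.46 and 6.51 CPM (interval of the log2 fold change −1.78 to −0.23). *Calb2*, for calretinin, had 17.2, 31.4 and 30.8 against 39.5, 33.7 and 47.9 CPM (−0.61, standard error 0.225). *Eomes*, a transcription factor of intermediate progenitors and of mitral cells, had 11.7, 18.4 and 19.4 against 24, 20.4 and 23.5 CPM (−0.45, standard error 0.168). All 3 were lowest in the *Ocn*−/− forebrain 1, whose olfactory bulb markers were lowest as well. The lists they come from had medians near 0. Of 15 tested genes of neurotransmitter synthesis and transport, which hold *Th*, 10 were lower, 2 at an unadjusted p under 0.05 (1.85% of all genes), and 5 higher, with a median of −0.06. Of 13 interneuron genes 9 were lower and 4 higher, with a median of −0.06. Of 7 genes of intermediate progenitors 3 were lower and 4 higher, with a median of 0.06. *Neurod4* and *Neurog2*, which promote neuronal differentiation, had log2 fold changes of 0.98 and 0.32 (edgeR adjusted p = 1.00 for both), and every *Ocn*−/− forebrain lay above every *Ocn*+/− forebrain, as for 3.46% of all genes. With the bulb markers as a covariate, 231 genes had an unadjusted p under 0.05 in place of 500. The covariate averaged lower in *Ocn*−/− forebrains and uses up a degree of freedom, so what the fall owes to bulb tissue was not tested.

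Thalamic and hypothalamic genes were also lower in the median. *Tcf7l2*, a transcription factor of thalamic neurons (ENSMUSG00000024985.21), had 5.85, 9.22 and 6.84 CPM in *Ocn*−/− and 10.3, 19 and 24.7 CPM in *Ocn*+/− forebrains. The groups did not overlap (log2 fold change −1.29 with an adjusted p of 0.0219 in DESeq2, and −1.30 with a standard error of 0.308 and an adjusted p of 1.00 in edgeR). In edgeR its adjusted p was 0.0202 without the *Ocn*+/− forebrain 1 and 0.0102 with a replicate block. It was 3.58e-09 with no filter on low counts, where the spread was mainly pooled over genes, and 0.0763 or above in the other alternatives. The axon guidance gene *Ntng1* had 18, 26.6 and 18.1 against 26.1, 27.5 and 30.9 CPM (−0.42), and the homeobox gene *Gbx2* stayed at or under 3.09 CPM. Of 7 thalamic markers, 6 were lower, 3 at an unadjusted p under 0.05 (1.85% of all genes), with a median of −0.40, which was −0.23 without the *Ocn*−/− forebrain 1 and −0.63 without the *Ocn*−/− forebrain 2. Of 8 hypothalamic markers tested, 7 were lower and 0 had an unadjusted p under 0.05. The *Ocn*−/− forebrain 1 had 0 CPM of the homeobox gene *Otp*, of *Fezf1* and of the vasopressin gene *Avp*, where the others had 1.17 to 6.46, 1.77 to 6.74 and 1.58 to 3.96 CPM. The hypothalamic median was −0.66, −0.28 without that forebrain, −0.22 without the *Ocn*+/− forebrain 1 and 0.08 with neither of them.

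No neocortical or hippocampal marker was called. The 9 neocortical markers had a median of −0.03, with 4 higher, 5 lower and 0 at an unadjusted p under 0.05. *Neurod6*, a transcription factor of pyramidal neurons, had 413, 301 and 394 against 354, 402 and 377 CPM (−0.03, standard error 0.106). The neocortical sum was lowest in the *Ocn*−/− forebrain 2, at 1090 CPM against 1326 to 1540 CPM in the other 5. Of 7 hippocampal markers 6 were higher, with a median of 0.09 and 0 at an unadjusted p under 0.05. *Prox1*, which specifies granule cells of the dentate gyrus, had 39.3, 45.6 and 38.3 against 42.9, 43.1 and 33.7 CPM (0.04, interval −0.21 to 0.29), and *Zbtb20*, a repressor active in hippocampal pyramidal neurons, 262, 290 and 161 against 209, 190 and 136 CPM (0.42, interval −0.36 to 1.19), which was called with a replicate block (0.40, edgeR adjusted p = 0.0453).

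**Figure D4:**
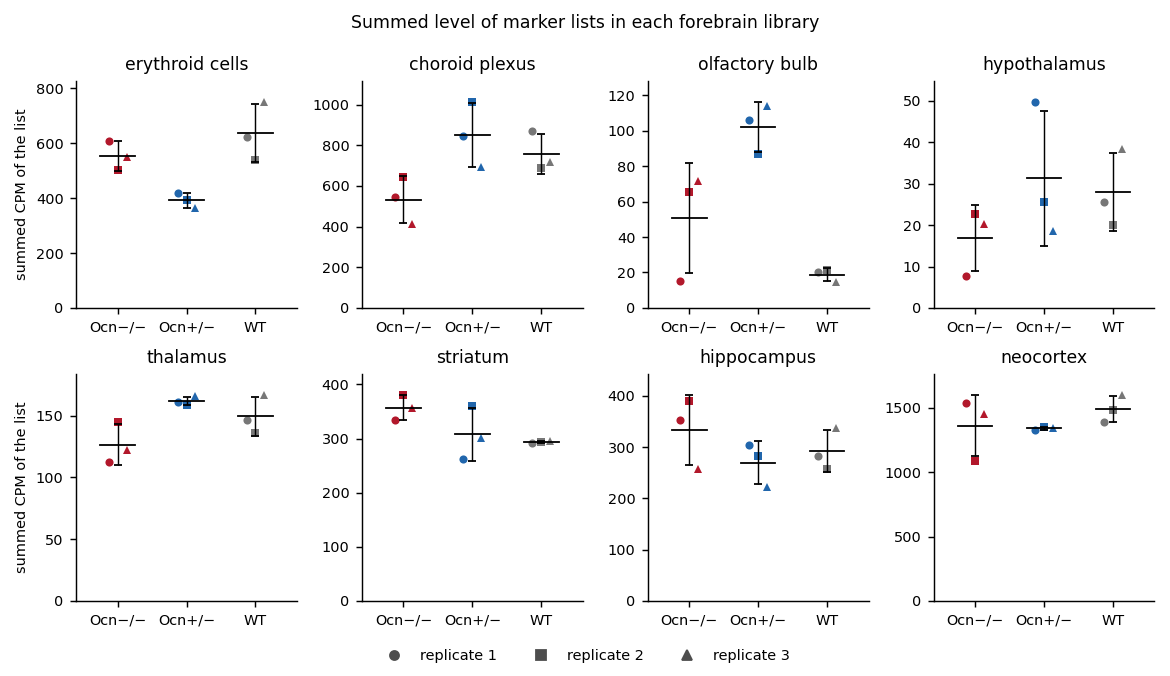
Summed CPM (y axis, from 0) of 8 lists of markers in each forebrain, for *Ocn*−/− (red), *Ocn*+/− (blue) and WT pups (grey, from WT mothers). Symbols are pups, and bars are the mean and SD of 3. Erythroid sums are higher and choroid plexus sums lower in all *Ocn*−/− pups than in all *Ocn*+/− pups, and the olfactory bulb sum ranges from 15.1 to 71.6 CPM within *Ocn*−/−.

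Genes of synapses and transmitters gave no call. Of 20 genes of synaptic vesicles and release, 16 were lower with a median of −0.07, and 2 had an unadjusted p under 0.05, where 1.85% of all genes were lower at that p. Without the *Ocn*−/− forebrain 1, 13 were lower with a median of −0.02, and 0 had such a p. *Vamp2*, the vesicle SNARE of synapses, had 430, 525 and 559 against 561, 625 and 599.7 CPM (−0.24, standard error 0.0915). Of 34 glutamate and GABA receptor genes, 17 were higher and 17 lower. *Grm3*, a metabotropic glutamate receptor, was the 1 of 34 with an unadjusted p under 0.05, near the 3.16% of all genes that did, with 65.7, 60.9 and 55.4 against 51.9, 46 and 43.1 CPM (0.37, standard error 0.104). The neurotrophin *Ntf3* had 9.42, 9.5 and 10.8 against 7.64, 5.09 and 7.54 CPM (0.55, standard error 0.194). For enzymes of neurotransmitter synthesis, *Gad1*, which makes GABA, had a log2 fold change of −0.04, *Tph2*, which makes serotonin in the brainstem, stayed at or under 0.845 CPM in the 6 libraries, and *Th* is given above.

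Stress, energy and timing genes gave no call. The 19 clock genes had a median of −0.08, 14 lower and 5 higher, with 0 at an unadjusted p under 0.05, and the 23 genes of glycolysis a median of −0.02 with 0. For 16 cell death genes the median was −0.01, with *Cdkn1a*, the cell cycle inhibitor p21, as the 1 of 16 at an unadjusted p under 0.05, where 3.16% of all genes were (19, 26.3 and 22.5 against 30.6, 25.4 and 29.8 CPM). The 16 cell division genes had a median of 0.03, and 13 homeostatic microglia genes one of 0.03. Immediate-early genes, which neurons switch on within minutes of activity, were high in 1 pup. *Fos* had 1.06, 2.82 and 2.23 CPM in *Ocn*−/− and 2.22, 3.03 and 20.4 CPM in *Ocn*+/− forebrains, and *Egr1* 14, 22.8 and 21.1 against 14.9, 22.8 and 60.1 CPM. The high values were those of the *Ocn*+/− forebrain 3.

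RNAs that poly(A) selection removes were lower in *Ocn*−/− forebrains as well. The 7 RNAs without a poly(A) tail that were tested were all lower, 5 at an unadjusted p under 0.05 (1.85% of all genes), with a median of −1.01, and −0.60 without the *Ocn*+/− forebrain 1. Among the 5 are *Rn7s1* and *Rn7s2*, which share 100% of their stretches and have the same counts, so they are 1 signal. The whole list summed to 4125, 4683 and 4983 CPM in *Ocn*−/− and 10010, 4925 and 5738 CPM in *Ocn*+/− forebrains. *Rn7sk*, a noncoding RNA that restrains transcription elongation, had 6.01, 8.81 and 9.22 against 24, 10.5 and 13.9 CPM (−1.01, standard error 0.296). Of 12 mitochondrial messages, 10 were lower, 8 at an unadjusted p under 0.05 (1.85% of all genes), with a median of −0.28. *mt-Nd2*, a subunit of respiratory complex I, had 1150, 1449 and 1550 against 1777, 1806 and 1731 CPM (−0.36, standard error 0.0953), and its log2 fold change was −0.17 with the olfactory bulb covariate. With neither the *Ocn*−/− forebrain 1 nor the *Ocn*+/− forebrain 1, the medians were −0.44 and −0.18 and 0 and 3 members had an unadjusted p under 0.05, while the erythroid list had 5 of 5 higher with 4 and the choroid plexus list had 11 of 14 lower with 5, beside 517 of all 15915 genes tested in that setting.

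**Figure D5:**
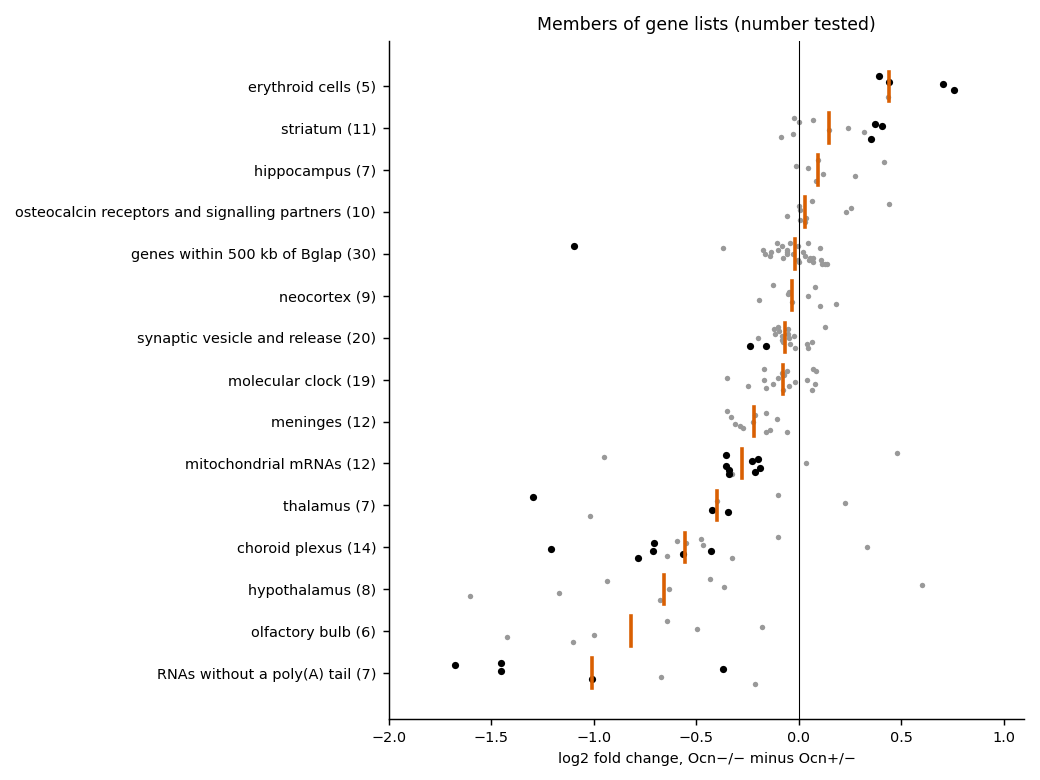
Log2 fold change (x axis) of each tested member of 15 gene lists (y axis, number tested in parentheses). Black points had an unadjusted p under 0.05, grey points did not, and orange bars are medians. Erythroid genes lie above 0, and choroid plexus, olfactory bulb and poly(A)-free RNAs lie almost wholly below it.

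Some genes varied widely within a genotype. Of the 11926 genes with at least 5 CPM, 142 ranged over more than 1 on the log2 scale within *Ocn*−/− and 98 within *Ocn*+/−, with 31 in both. Of the 18 genes with the widest ranges, 14 share at least 50% of their 50-base stretches with another gene. *mt-Co3*, a subunit of cytochrome oxidase, was listed at 47.2, 38.8 and 129 CPM in *Ocn*−/− and 0.0694, 0 and 153 CPM in *Ocn*+/− forebrains, and 99.9% of its stretches occur in *Gm28437*. The sum of both was 5870, 6110 and 6110 against 6650, 6970 and 6220 CPM. *Gm13841*, a processed pseudogene, was at 45.1, 100.1 and 56 CPM against 48.2, 0 and 56. Of the 4 other genes, *Cdhr1*, *Fos* and *Egr1* are given above, and *Nnt*, the mitochondrial transhydrogenase, had 9.99, 4.68 and 19.1 CPM in *Ocn*−/− and 16.3, 11.5 and 12.7 CPM in *Ocn*+/− forebrains.

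The same genotypes were compared in testes of this series, also from pups of *Ocn*−/− mothers. There 0 of 15497 genes were called and 1571 had an unadjusted p under 0.05. A joint edgeR fit tested whether the genotype difference in forebrain differed from that in testes, and 0 of 17410 genes were called, with 995 at an unadjusted p under 0.05. DESeq2 called 6 genes in this test. In testes *Hba-a2* had a log2 fold change of −0.49 (standard error 0.709), opposite in sign to the forebrain, and the difference between the tissues of 1.25 had an edgeR adjusted p of 0.865. For *Aqp1* the testes gave −0.14 (standard error 0.215) and the difference between tissues an edgeR adjusted p of 0.848.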

How the data were processed

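Expected counts per gene were made by the authors and deposited as 1 table of 55359 genes. The submitters' processing notes name Trim Galore 0.6.6, STAR 2.7.8a, RSEM 1.3.3 and the GRCm39 build. Poly(A) RNA libraries were made with NEBNext reagents, and the annotation release and strandedness are not given in the sources used here. Expected counts were rounded to whole numbers (fractional values occurred for 7743 genes in the 6 libraries). Because RSEM divides reads among similar genes, near-identical genes were also summed, and the share of each gene's 50-base stretches found in other genes was computed.

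Genes were filtered with filterByExpr, scaled by TMM and fitted with edgeR 4.0.16 (R 4.3.3) on the 3 *Ocn*−/− and 3 *Ocn*+/− forebrains, using the robust quasi-likelihood test with no covariate and Benjamini-Hochberg adjustment at 0.05. DESeq2 1.42.0, other scalings, filters, sets of libraries, an olfactory bulb covariate and a replicate block were tried as alternatives. Groups came from the sample labels. Log2 CPM for distances used a prior count of 2. The scripts were tested on simulated data. Named were the osteocalcin genes and receptors, genes within 500 kb of *Bglap*, the 8 higher and 8 lower genes with the smallest p and a mean of at least 1 CPM, up to 4 members per list with the largest differences, and the 10 genes per genotype with the widest ranges. *Ddx3y*, *Xist* and single members outside this rule were named after their values were seen. The members and lists were chosen with earlier results of these data known. Some results that the rule would name are not reported here.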

Additional observations from a re-analysis of the deposited data

How the results depend on the processing

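No gene was called with RLE size factors, library size alone, without poly(A)-free and mitochondrial RNAs, or with at least 10 counts in every library. With all 9 forebrains, or 8 without the WT forebrain 3, *Gm16105* was the 1 gene called, and 1 gene, *Tmc3*, was called with the olfactory bulb covariate. DESeq2 called 3, and 49 were called with no filter on low counts, a fit in which the spread was mainly pooled over genes. Leaving out 1 library gave 0 to 2 calls. With neither the *Ocn*−/− nor the *Ocn*+/− forebrain 1, an alternative chosen after seeing the data, 1 was called. A replicate block gave 12 calls, 4 higher and 8 lower, among them *Ttr* (−0.72) and *Hba-a2* (0.75). Same-numbered pups correlated at 0.0782, −0.0117 and 0.157 in their deviations, and differently numbered pups at −0.184 to 0.125. The replicate 3 pair was the highest of all, but the numbers were not taken to pair the pups. Genes at an unadjusted p under 0.05 numbered 1007 with the replicate block, 1152 with no filter, 231 with the olfactory bulb covariate and 302 to 1305 with 1 library left out.

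Over all alternatives the median of 24 of the 42 gene lists crossed 0, among them those of glycolysis (−0.0532 to 0.0456), cell death (−0.0651 to 0.0349), neocortex (−0.143 to 0.137), hippocampus (−0.0199 to 0.204) and homeostatic microglia (−0.00898 to 0.133). Erythroid medians ranged from 0.23 to 0.541 and choroid plexus medians from −0.797 to −0.378. The difference of distances ranged from −0.787 to 1.81 with 1 library left out. With 1 library left out, *mt-Co3* ranged from −0.262 to 10.6 and *Gpr158* from −0.127 to 0.148. *Gpr37* ranged from −0.128 to 0.276 with 1 library left out, and was −0.00745 with the replicate block, −0.197 with the covariate and −0.0914 with neither forebrain 1. *Tbx21* was 0.178 and *Ms4a15* 0.782 with the covariate. In the comparison with testes, DESeq2 called 6 genes. The cause of these shifts was not tested. With 3 pups a group, differences under about 0.247 on the log2 scale lay within the median interval of genes of at least 5 CPM. That interval is unadjusted, and larger differences also went uncalled in the main fit.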
